A study of Mus musculus with 6 samples.

Results

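The 10 genes described here are markers of macrophages that live in tissues, together with scavenger receptors that such cells carry: Emr1 (the gene of F4/80, now Adgre1), Mrc1, Cd163, Lyve1, Timd4, Folr2, Mertk, Siglec1, Msr1 and Stab1. They were chosen by name. Each probe that the array design assigns to one of these symbols was taken, which gave 13 probes (1 for each gene, and a second one for Emr1, Siglec1 and Msr1) of the 55681 on the array, and 10 of 34964 names that the design and the reference table give to its probes. Where a gene had several probes, the one with the brightest mean signal over the macrophage arrays stood for it. Of the 10 genes, 9 had a sample signal clearly over background on 2 or more of the 4 macrophage arrays (by the scanner software) and were tested, as were 12 of the 13 probes. Cd163 was above it on 1 array and was not tested.

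RNA of mouse mammary gland cells was hybridised to 6 Agilent arrays, with the sample in Cy5 and a universal mouse reference RNA pooled from cell lines in Cy3, so each value is a log2 ratio of sample over reference. F4/80+ macrophages came from Dll1 conditional knockout females (KO, strain label C57/B6:cKO-Dll1, 2 arrays) and from wild type females of their litters (WT, C57/B6, 2 arrays). Cells gated as CD24+ and CD29 high (the P4 gate, labelled MaSC for mammary stem cell) came from Dll1-mCherry reporter females and were split by mCherry into a Dll1-high and a Dll1-low fraction (1 array each). All mice were virgins. Dll1 encodes a ligand of Notch receptors, and the series title places macrophages in the niche of the stem cells. The labels do not give the Cre driver, the cells or exons that lose Dll1, the age of the mice, or whether replicates 1 and 2 came from separate animals. The p-values therefore measure the spread between these samples, which may be technical, and the number of arrays limits the precision.

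Resident macrophages keep tissues clean by taking up dying cells, debris and modified proteins through broad sets of surface receptors. Scavenger receptors such as Msr1 and Stab1 bind modified lipoproteins and other altered ligands, lectins such as Mrc1 and Siglec1 bind sugars, and Timd4 and Mertk recognise dying cells, the first by phosphatidylserine and the second through bridging proteins. In many mouse tissues, the mammary gland among them, Lyve1, Folr2, Mrc1 and Timd4 mark long-lived macrophages, and the F4/80 protein is the usual antigen for sorting mouse macrophages.

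Array probes are 60 bases long. The first 30 bases are given for both probes of Emr1 and Msr1 and for the probes of Lyve1, Timd4 and Folr2, whose arrays were far apart, because the results turn on how these probes were read. Positions are on mm9, the build in the file headers. An mm9 gene annotation was not used here, so no exon or untranslated region is assigned. The Emr1 probes lie on the plus strand, the main one at chr17:57622868-57622927 and the second at chr17:57620350-57620409. Those of Msr1 lie on the minus strand, the main one at chr8:40689158-40689217 and the second at chr8:40709296-40709355. The probes of Lyve1 (chr7:117994171-117994230, minus strand), Timd4 (chr11:46657173-46657232, plus strand) and Folr2 (chr7:108988771-108988830, minus strand) are the only ones of their genes on the array.
Emr1 main probe: ggtgttccagaaattctcatttaataccca
Emr1 second probe: atgaatataagaaactcctcaccaggaaga
Msr1 main probe: aagtcatcttacatccaaaactacacgtat
Msr1 second probe: gacactgcttgatgttcaactccatacaga
Lyve1: cactttgtgtgcctttaacaaatacattat
Timd4: acttcttttcacattcaagtttctttaaag
Folr2: gtttgactcaacccagggcaatcccaatga

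Dll1 itself, by its brighter probe, ranged over 0.80 to 2.25 in KO macrophages and 0.78 to 3.24 in WT macrophages, so the genotypes overlapped at this probe (KO minus WT -0.49, SE 1.03, limma adjusted p 0.9997). Whether that probe lies in the deleted part is not given by the labels, so it does not check them. On the macrophage arrays, Cy5 was well above background for 47.4% to 71.9% of spots, and on the arrays of the gated epithelial cells for 86.0% and 88.1%. The macrophage arrays shared 1 slide, with replicate 1 of both genotypes in its first row and replicate 2 in its second, so that row and replicate number go together. The epithelial arrays lay on another slide, and with it slide and cell type cannot be told apart. The closest pair of macrophage arrays was KO replicate 2 with WT replicate 2 (r = 0.944 across probes), whereas WT replicates 1 and 2 correlated at 0.426 and KO replicates 1 and 2 at 0.713. KO replicate 1 with WT replicate 1 gave 0.681. Genes are not independent replicates, and these values describe the arrays.

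Emr1, Mrc1, Timd4, Folr2 and Stab1 read above the reference RNA by 0.70 or more on the log2 scale on each of the 4 macrophage arrays. The median over the 10 genes was 1.20 and 3.23 in KO replicates 1 and 2, against 1.08 and 3.96 in the WT ones, on the log2 ratio scale. In Dll1-high and Dll1-low cells it was 0.01 and 0.05. For 7 of the 10 genes (6 of the 9 tested) all 4 macrophage arrays read higher than both epithelial arrays, against 20.2% of probes tested. The exceptions were Lyve1, Folr2 and Mertk, and in each of them WT replicate 1 or KO replicate 1 read below an epithelial array. The 7 include Cd163, whose values lie near background, and Siglec1 by its main probe only. The fainter second Siglec1 probe went the other way, at 0.15 and 0.04 in KO and 0.06 and -0.09 in WT. It read 0.24 and 0.33 in Dll1-high and Dll1-low cells. Replicates of one genotype were far apart, with a median gap over the 10 genes of 1.16 between KO replicates 2 and 1 and 2.44 between WT replicates 2 and 1. WT replicate 2 was at least 2-fold above WT replicate 1 for 8 of the 10 genes (background 11.9% of probes), and KO replicate 2 was at least 2-fold above KO replicate 1 for 5 (background 3.98%). Lyve1 is in both counts, and its spot on KO replicate 1 was unreadable, as described with that gene. The plot of the 10 genes by array shows this spread.

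**Figure D1:**
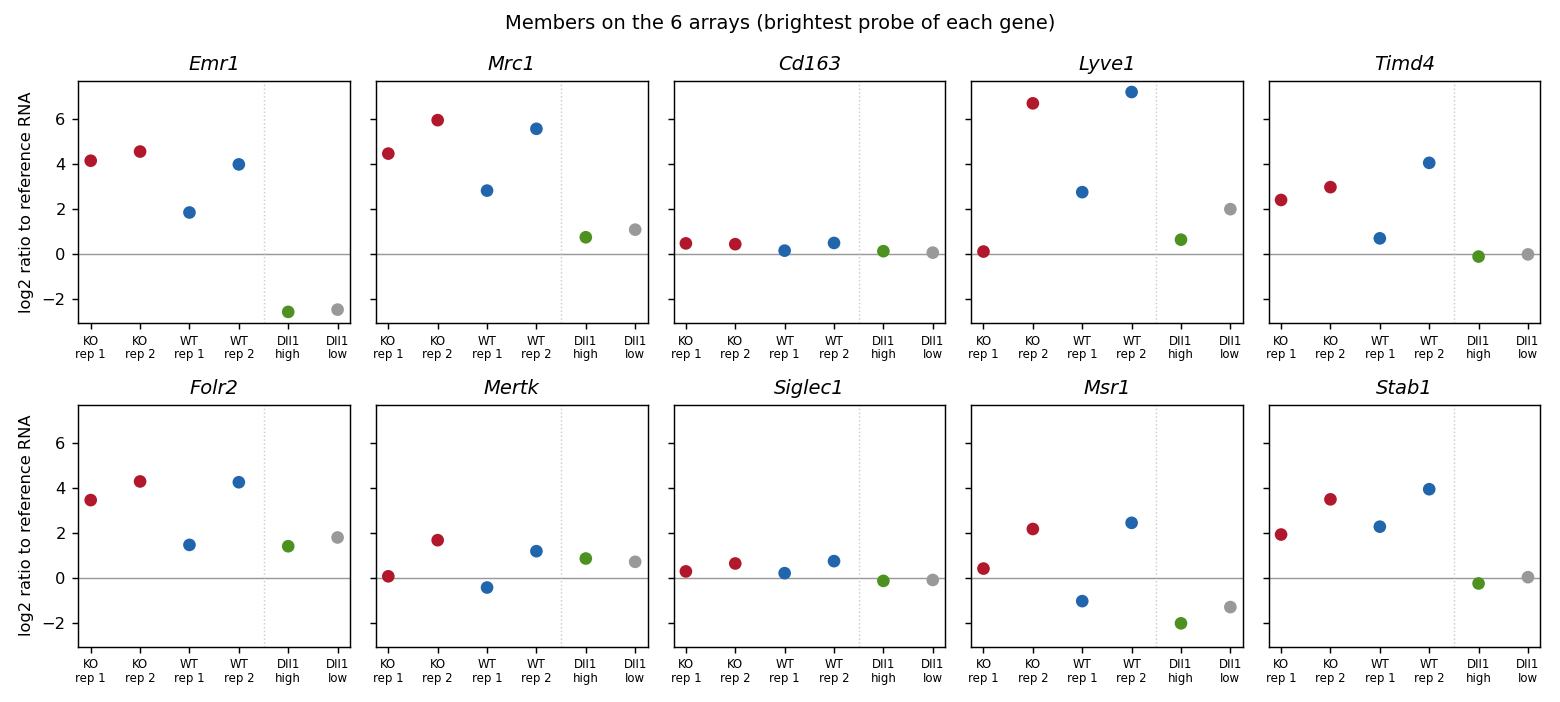
Each panel plots the log2 ratio of 1 gene to the reference RNA on the 6 arrays, by the gene's brightest probe; each point is 1 array (KO red, WT blue, Dll1-high green, Dll1-low grey) and the dotted line parts the slides. WT replicate 1 is the lowest macrophage array in 8 of the 10 panels, and Lyve1 spans 0.11 (an unreadable spot on KO replicate 1) to 7.20 over the 4 macrophage arrays.

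The first comparison asks whether resident identity differed between KO and WT macrophages. No gene of the 10 passed. With limma, 0 of the 9 tested genes and 0 of all 34904 probes tested (0%) had an adjusted p under 0.05, and the adjusted p was 0.9997 for each of the 9. An unadjusted p under 0.05 was seen for 50 probes (0.143%), none of them from these genes. Nor could an exact permutation test of 2 against 2 arrays pass, since its smallest two-sided p is 0.333. The differences below are therefore values with their errors, not changes. By mean, 7 of the 10 genes were higher in KO (background 42.3%), 3 of them at least 2-fold (Emr1, Mrc1 and Folr2, background 1.61%), and Lyve1 was at least 2-fold lower (background 4.49%), with KO replicate 1 unreadable. The median KO minus WT difference over the 10 genes was 0.40, and over all probes tested it was -0.07.

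Emr1 encodes the antigen of the sort. On the loess-normalized scale it was the only gene of the 10 with both KO arrays above both WT arrays (background 7.34%). Its main probe read 4.15 and 4.56 in KO replicates 1 and 2, against 1.85 and 3.99 in WT replicates 1 and 2. Both KO arrays lay close together, and the WT arrays were wide apart, with WT replicate 1 low. KO minus WT was 1.43 (SE 0.81, n = 2 each, limma adjusted p 0.9997), made of 2.30 between the replicates 1 and 0.57 between the replicates 2. The second probe read 2.60 and 2.57 in KO, against 0.45 and 2.62 in WT. By that probe the genotypes overlapped, with WT replicate 2 the highest array by a small margin and WT replicate 1 again far below the rest. Its KO minus WT was 1.05 (SE 0.81), with 2.15 and -0.05 within replicates 1 and 2. On the epithelial arrays Emr1 was below the reference by both probes: the main probe read -2.56 and -2.46 in Dll1-high and Dll1-low cells, and the second -0.59 and -0.40. In bulk samples of this kind, fewer cells of a type and less RNA per cell cannot be told apart.

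Of the lectins, Mrc1 was higher in KO within both replicate numbers and Siglec1 was nearly equal between genotypes by its main probe. Mrc1, the mannose receptor that takes up glycoproteins, read 4.47 and 5.95 in KO replicates 1 and 2, against 2.82 and 5.57 in WT replicates 1 and 2. Within each replicate number KO was the higher, while KO replicate 1 lay below WT replicate 2, so the genotypes overlapped. KO minus WT was 1.01 (SE 1.12), with 1.64 and 0.38 within replicates 1 and 2. On KO replicate 1 the reference dye of the Mrc1 spot (67 over a background of 21) was not called well above background. With the scanner's processed signals Mrc1 read 6.87 and 7.59 in KO, against 4.37 and 6.45 in WT, so the genotypes did not overlap. Its KO minus WT was then 1.82, against 1.62 for the main probe of Emr1. Siglec1, or sialoadhesin, which binds sialic acids, read 0.29 and 0.64 in KO, against 0.21 and 0.74 in WT. These arrays all lay within 0.53 of each other in WT and 0.35 in KO, and KO minus WT was -0.01 (SE 0.37). Its second probe was fainter, above background on 2 of the 4 macrophage arrays, and gave 0.11 (SE 0.30). With the processed signals the main probe read 0.73 and 1.58 in KO, against 0.76 and 1.60 in WT, so its level against the reference depends on the background correction.

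Folr2, the folate receptor beta, was the third gene with a 2-fold higher mean in KO. It read 3.45 and 4.28 in KO, against 1.46 and 4.25 in WT. The replicates 2 were almost equal and WT replicate 1 stood alone below, so that KO minus WT was 1.99 within replicates 1 and 0.03 within replicates 2. The mean difference of 1.01 (SE 1.04) did not keep its sign with the scanner's processed signals, where it was -0.05. There Folr2 read 4.02 and 5.49 in KO, against 4.33 and 5.28 in WT. On WT replicate 1 the reference dye of this spot had a signal of 48.5 and was not above background, so the ratio of that array rests on a dim denominator. In Cy5 alone the spot gave 1928 and 1538.5 in KO, against 210 and 1492 in WT, as raw median intensity.

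The receptors for dying cells differed in direction within replicates 2. Timd4, a phosphatidylserine receptor of resident macrophages, read 2.41 and 2.98 in KO, against 0.70 and 4.05 in WT. The WT arrays thus held both the lowest and the highest value. KO minus WT was 0.31 (SE 1.21), the balance of 1.70 within replicates 1 and -1.08 within replicates 2. On this scale Timd4 was the only gene of the 10 at least 2-fold lower within replicates 2 (background 0.549%). Its difference there was under 2-fold in other settings. It was -0.54 with the processed signals, -0.94 under median centring, -0.90 in Cy5 alone and -0.99 with no background subtraction. Mertk, the receptor kinase that binds dying cells through Gas6 and protein S, read 0.07 and 1.67 in KO, against -0.43 and 1.18 in WT. Its KO minus WT was nearly the same within both replicate numbers, 0.50 and 0.49, and smaller than the gap between replicates of 1.60 in KO and 1.61 in WT (mean 0.49, SE 0.84). Within each genotype replicate 1 was the low one.

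Of the scavenger receptors, Msr1 was higher and Stab1 lower in KO by mean. Msr1, the class A macrophage scavenger receptor, read 0.41 and 2.17 in KO, against -1.03 and 2.44 in WT, by its main probe. KO lay inside the range of WT, and KO minus WT was 0.59 (SE 1.38), with 1.45 and -0.27 within replicates 1 and 2. The second Msr1 probe read 0.50 and 0.60 in KO, against -0.78 and 0.69 in WT, a difference of 0.60 (SE 0.59). On WT replicate 1 the Cy5 signal of that probe (86 over a background of 64) was not well above background, so its value there and the difference rest on a floor. Stab1, stabilin-1, which clears modified proteins and is also found on sinusoidal and lymphatic endothelium, read 1.92 and 3.49 in KO, against 2.27 and 3.94 in WT. It was lower in KO within both replicate numbers, with differences of -0.35 and -0.45, a pattern seen for 29% of probes (mean -0.40, SE 0.84). Within replicates 1 the difference turned to 0.09 with the processed signals and to 0.89 under median centring. Cd163, the haemoglobin scavenger receptor, had no readable level. Its Cy3 signal was not well above background on any of the 6 arrays, and of the macrophage arrays its Cy5 signal was well above it on KO replicate 1 alone. Its ratios, 0.48 and 0.44 in KO, against 0.16 and 0.50 in WT (2.32 and 2.71 in KO, against 1.15 and 2.87 in WT, with the processed signals), are thus made near background.

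**Figure D2:**
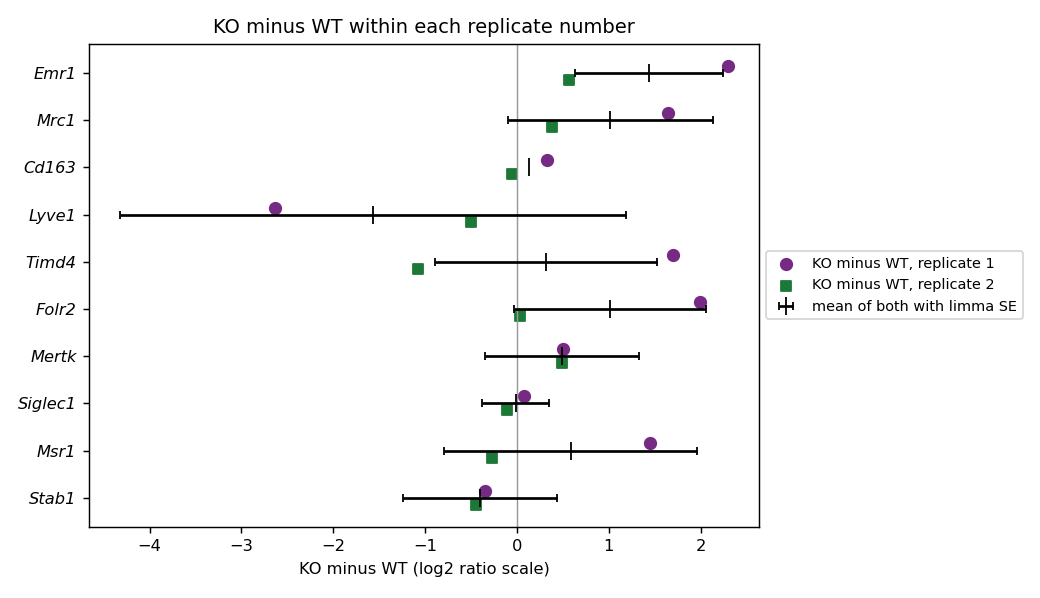
For each of the 10 genes, the KO minus WT difference in log2 ratio is shown within replicates 1 (purple circle), within replicates 2 (green square) and as the mean of both (tick, with the limma standard error as a bar; Cd163 was not tested and has no bar). In 8 genes the replicate 1 value is above 0, while the replicate 2 values lie between -1.08 (Timd4) and 0.57 (Emr1).

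Lyve1, a hyaluronan receptor of lymphatic endothelium and of macrophages along vessels, had the widest range of the 10 genes over the macrophage arrays. It read 0.11 and 6.70 in KO replicates 1 and 2, against 2.75 and 7.20 in WT replicates 1 and 2. Both replicates 2 were high and WT replicate 1 far lower, while the KO replicate 1 value is no level. KO minus WT was -1.57 (SE 2.76), with -2.64 and -0.50 within replicates 1 and 2. On KO replicate 1 the Lyve1 spot held no signal above its surroundings in either dye. Its Cy5 signal was 69.5 over a background of 69, and its Cy3 signal, which reads the common reference RNA, was 22 over a background of 22. The same spot had Cy3 signals of 108 on KO replicate 2, and 67.5 and 139.5 on WT replicates 1 and 2, all well above background. The reference RNA is the same on every array, so the ratio of this spot is a ratio of backgrounds. Among the 22 spots around it on KO replicate 1, Cy3 was above background for 13 and Cy5 for 12, and the scanner software had not marked the spot as an outlier.

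Such readings were not limited to Lyve1. Of 32398 probes with Cy3 well above background on the other 3 macrophage arrays, 2738 (8.45%) lacked it on KO replicate 1. Of 8297 probes that were bright in both dyes on the other 3 macrophage arrays (Cy5 at least 5 times its background), 193 (2.33%) had neither dye above background on KO replicate 1. On KO replicate 2 there were 68 of 8500 (0.8%), and on the WT arrays 0 of 10039 for replicate 1 and 0 of 7869 for replicate 2. Lyve1 is among the 193, and without KO replicate 1 its KO minus WT was 1.72 in place of -1.57. Leaving Lyve1 out, the median over the other 9 genes was 0.49. The KO level of Lyve1 therefore rests on the 1 array with a readable spot, where Lyve1 read 6.70, against 7.20 on WT replicate 2.

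**Figure D3:**
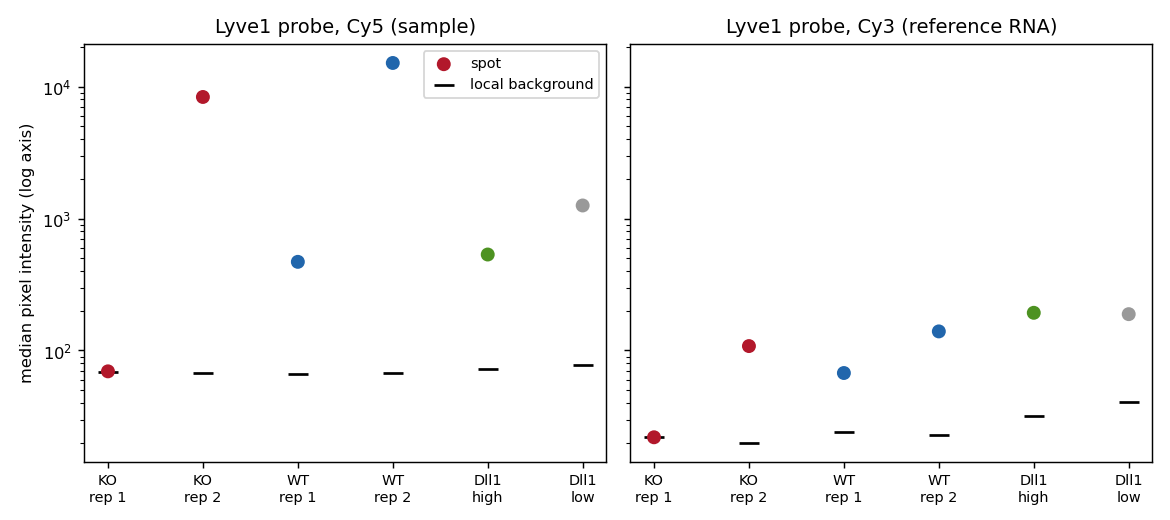
The raw median intensity of the Lyve1 spot (points, log axis) and of its local background (dashes) is plotted for the 6 arrays, with the sample dye Cy5 on the left and the reference dye Cy3 on the right. On KO replicate 1 both dyes sit at their background, at 69.5 and 22, while the reference dye reads 67.5 to 193 on the other arrays.

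The second question is how these genes behaved within each replicate number. Within replicates 1, KO was higher than WT for 8 of the 10 genes (background 43.1%), and at least 2-fold for 5, namely Emr1, Mrc1, Timd4, Folr2 and Msr1 (background 8.89%). Lyve1 alone was at least 2-fold lower there (background 15.9%), by its unreadable spot. Within replicates 2, KO was higher for 4 of the 10 (Emr1, Mrc1, Folr2 and Mertk; background 47.7%), and for 0 of them at least 2-fold (background 0.267%). The median difference over the 10 genes was 0.97 within replicates 1 and -0.08 within replicates 2, against -0.12 and -0.01 over all probes tested. The same 4 genes were higher in both (background 19.8%), and Lyve1 (replicate 1 unreadable) and Stab1 were lower in both (background 29%). With the processed signals Folr2 was -0.31 and Stab1 0.09 within replicates 1, so neither kept its pattern in that setting. Whether the difference between the replicate numbers exceeds chance was not tested, since each holds 1 array per genotype.

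WT replicate 1 was the low array for most of these genes. It was the lowest of the 4 macrophage arrays for 8 of the 10 genes (background 30.4%), the exceptions being Stab1, for which KO replicate 1 was lowest, and Lyve1, whose KO replicate 1 spot was unreadable and for which WT replicate 1 was the lowest of the other 3 arrays. Without WT replicate 1 the median KO minus WT over the 10 genes was -0.37, and 1 of the 10 genes was higher in KO. Without WT replicate 2 it was 1.64, and 10 of 10 were higher. Leaving out KO replicate 1 gave 1.36 and leaving out KO replicate 2 gave -0.08. The sign of the group difference thus depends on which array is left out. Only Emr1 was higher in KO in all 15 alternatives tried, with values of 0.37 to 2.50. Several of these changed only the filter or the fit and kept its value of 1.43, and none used its second probe alone. By that probe the KO mean of 2.58 lay below WT replicate 2 at 2.62.

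Genes of other cell types differed between the same arrays. Fibroblast genes (12 measured, among them Col1a1 and Col3a1) stood at a list median of -0.29 and -0.37 in KO, against 0.44 and -0.89 in WT, so WT replicate 1 was the highest. Eosinophil genes, listed because eosinophils can carry F4/80, had medians of 1.50 and 1.75 in KO, against 0.32 and 2.34 in WT. Siglecf, a lectin of eosinophils and some macrophages, was likewise lowest on WT replicate 1, at 4.52 and 4.23 in KO, against 0.07 and 4.27 in WT. This held for 4 of the 7 tested eosinophil genes (background 30.4%), while Il5ra and Ear2 were highest on WT replicate 1, at 2.37 and 6.16. Blood endothelial genes had medians of 1.69 and 2.18 in KO, against 3.01 and 2.99 in WT. By mean, 12 of 12 were lower in KO (9 of 12 with the processed signals), where 42.3% of all probes tested were higher in KO. Each of these lists had 0 genes past the limma threshold. The part of these cell types in the values of the 10 genes was not tested.

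Lyve1 and Stab1 are also made by lymphatic endothelium. Of the lymphatic list (Prox1, Flt4, Pdpn, Reln, Ccl21a, Mmrn1 and Sema3a), 6 genes were on the array and 5 were tested. By mean, 1 was higher (background 42.3%) and 4 were lower in KO. The list median was 0.27 and 0.12 in KO, against 0.00 and 0.30 in WT, and 0.18 and 0.36 in Dll1-high and Dll1-low cells. Prox1, the transcription factor that defines lymphatic endothelium, was above background in Cy5 on both WT arrays (103 and 106) and on neither KO array (95 and 66). In Cy3 it was above background on none of the 4, so no ratio of it is read. On KO replicate 2 both dyes of its spot sat at background, with Cy5 at 66 over 65 and Cy3 at 18 over 19. Whether that spot failed was not tested, and no genotype difference in Prox1 is read from these signals. Mmrn1, a secreted multimerin of lymphatic and other endothelium, read 0.68 and 2.64 in KO, against 0.88 and 4.00 in WT. Its values were higher on both replicates 2, and its relation to Lyve1 was not tested.

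Other genes known from resident macrophages were also low on WT replicate 1. Of 24 such genes measured, 17 were higher (background 42.3%) and 6 lower in KO by mean, and Cbr2 lacked a value on 1 array. The list medians were 1.48 and 2.21 in KO, against 0.63 and 2.30 in WT. Within replicates 1, 17 genes were higher in KO (background 43.1%), and within replicates 2, 11 were (background 47.7%). WT replicate 1 was the lowest array for 16 of the 24, against 30.4% of all probes. Csf1r, the receptor of the main macrophage growth factor, read 4.31 and 4.31 in KO, against 2.80 and 4.02 in WT. Spic, a transcription factor of iron-recycling macrophages, read 2.22 and 3.78 in KO, against 0.27 and 3.47 in WT, and Fcna, a ficolin of the innate defence, 1.21 and 1.77 in KO, against -0.96 and 1.71 in WT. In all 3 genes WT replicate 1 was the lowest array and the other arrays were closer to each other. Clec10a, a galactose lectin, read 6.61 on KO replicate 1, against 7.18 and 7.09 in WT. On KO replicate 2 its spot was unreadable, with Cy5 at 64 over a background of 65 and Cy3 at 18.5 over 19.

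General macrophage genes (Csf1r, Cd68, Fcgr1, Lyz2 and others) had medians of 2.35 and 2.92 in KO, against 2.18 and 2.34 in WT. By mean, 9 of 14 tested were higher (background 42.3%) and 4 lower in KO. In Dll1-high and Dll1-low cells the medians were -0.82 and -0.47. WT replicate 1 was the lowest array for 8 of the 14 general macrophage genes tested (background 30.4%). The same held for 8 of 12 dendritic cell, 7 of 9 neutrophil, 6 of 7 NK cell and 6 of 10 T cell genes tested. It held for 3 of 9 monocyte genes and for 1 of 12 in each of the fibroblast and blood endothelial lists. The plot of list medians sets all lists side by side. Single genes of this list were as far apart between arrays as members of the 10, and in unlike patterns. Lyz2 read 3.98 and 2.99 in KO, against 0.13 and 3.15 in WT. Itgam was highest on WT replicate 1, at 4.15 and 1.25 in KO, against 5.42 and 1.14 in WT. Tyrobp, above background on 3 of the 4 arrays, was lowest on KO replicate 1, at 0.43 and 4.43 in KO, against 3.24 and 4.10 in WT.

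**Figure D4:**
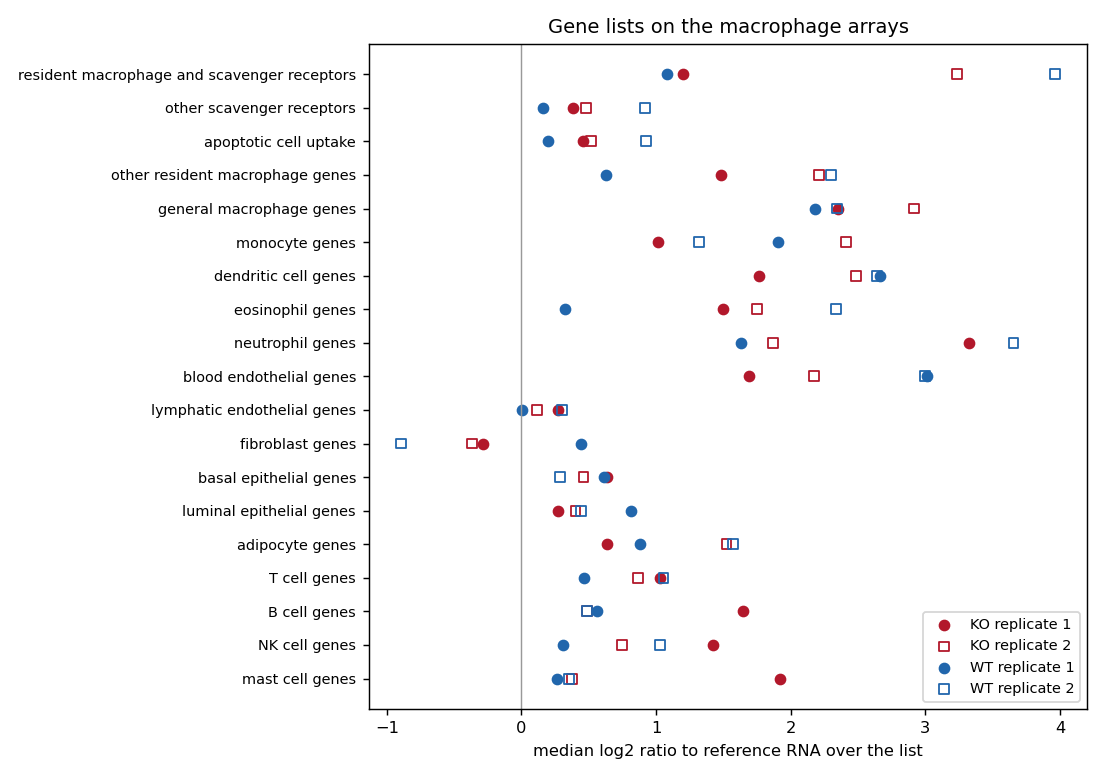
The median log2 ratio to the reference RNA is plotted for each of 19 gene lists on the 4 macrophage arrays (KO red, WT blue, replicate 1 filled circles, replicate 2 open squares). The 10 genes, in the top line, show replicates 2 at 3.23 (KO) and 3.96 (WT) and replicates 1 at 1.20 (KO) and 1.08 (WT). The list medians of general macrophage genes lie between 2.18 and 2.92, and a list median does not show the spread of single genes.

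Scavenger receptors outside the 10 genes were mixed in direction. Of 14 tested, 6 were higher (background 42.3%) and 8 lower in KO by mean, with a list median of -0.13. With the processed signals 6 of the 14 were lower and the median was 0.11. Marco, a class A scavenger receptor with a collagen-like stalk, read 2.72 and 6.31 in KO, against 4.95 and 6.49 in WT. Stab2, the paralogue of Stab1 and a hyaluronan scavenger of sinusoidal endothelium, read 1.62 and 4.70 in KO, against 2.45 and 5.21 in WT. Both were lowest on KO replicate 1, as Stab1 was. Olr1, the receptor of oxidised lipoprotein, read 1.74 and 1.80 in KO, against -0.65 and 2.42 in WT, so it was lowest on WT replicate 1. In the list of genes for the uptake of dying cells, 9 were higher (background 42.3%) and 7 lower of 16 tested (median difference 0.03). C1qa, a chain of the complement factor that tags such cells, differed most, at 4.19 and 4.55 in KO, against 1.43 and 4.18 in WT. The Mertk ligands Gas6 and Pros1, named after their values were seen, had KO minus WT differences of 0.05 (SE 0.55) and -0.15 (SE 0.78).

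Profiles over the 4 macrophage arrays were compared with those of 14684 probes above background on all 4, by the Euclidean distance between profiles centred on their means. The nearest to Emr1 were Cd72 (distance 0.121), Bcl11a (0.139) and Trim30d (0.141). Those of Folr2 were Klrd1 (0.0495), Igf1 (0.0615) and Cln3 (0.0879), and those of Timd4 included Gimap5 (0.201) and Sulf1 (0.364). Mrc1 had Cxcl9 (0.286), Gm16853 (0.300) and Entpd1 (0.330), and Msr1 had Serpina3f (0.275), Enpep (0.371) and Smad1 (0.400). No neighbour is named for Lyve1, whose profile holds the unreadable spot. These distances describe 4 arrays and carry no test.

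The last comparison sets Dll1-high against Dll1-low epithelial cells, with 1 array each and thus no replicate check and no p-value. Of the 10 genes, 8 were lower in Dll1-high cells (background 55.2%), with a median difference of -0.19 over the 10 genes. For Emr1 (-0.10), Timd4 (-0.10) and Siglec1 (-0.04) the difference was smaller than 0.12. That value is the median SD over spots of this difference, from probes spotted 10 times. Over all probes with Cy5 well above background on either of these arrays, the median difference was -0.03. On the loess-normalized scale Lyve1 was the only one of the 10 at least 2-fold apart (background 0.0765% lower and 0.0786% higher). It read 0.64 in Dll1-high and 2.00 in Dll1-low cells, a difference of -1.36, with raw Cy5 signals of 533.5 and 1255 and both dyes above background. The main probe of Msr1 read -2.02 in Dll1-high cells, where it was not well above background, and -1.30 in Dll1-low cells. With the processed signals its difference was -3.20, wider than that of Lyve1 (-1.70), and it rests on that dim signal. By this probe alone Msr1 was at least 1.35-fold higher in Dll1-low cells (0.43 in log2, from Cy5). The second probe was well above background on both arrays and read -0.60 and -0.30, a difference of -0.29. In Cy5 alone that difference was -0.20, so the second probe fell short of the bound. Mrc1 (0.75 and 1.09), Folr2 (1.40 and 1.79) and Stab1 (-0.25 and 0.03) were lower in Dll1-high cells by less than 2-fold, as were Timd4 (-0.11 and -0.01) and Siglec1 (-0.14 and -0.09). Mertk (0.86 and 0.71) was slightly higher there. Cd163 (0.13 and 0.07) had a reference dye at background on both arrays, and its difference was -0.52 with the processed signals. Fibroblast genes, with medians of -0.78 in Dll1-high and -0.26 in Dll1-low cells, general macrophage genes (-0.82 and -0.47) and blood endothelial genes (1.16 and 1.48) were lower in Dll1-high cells too. So were most other lists, among them luminal epithelial genes (0.63 and 1.05). Medians were higher in Dll1-high cells for basal epithelial genes (4.52 and 3.86), genes for the uptake of dying cells, other scavenger receptors and B cell genes. The part of any of these cell types in the Lyve1 difference was not tested.

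How the arrays were processed changed some of these values. The plot by processing gives KO minus WT for each gene under 4 ways of making the log2 values. Under median centring in place of loess, which moved the median of all probes tested to 0.39, the median over the 10 genes was 0.56, and 9 of the 10 were higher in KO. Relative to all probes, the 10 genes were then shifted by less than under loess. Stab1 turned to 0.25 and Siglec1 to 0.12 under that centring.

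**Figure D5:**
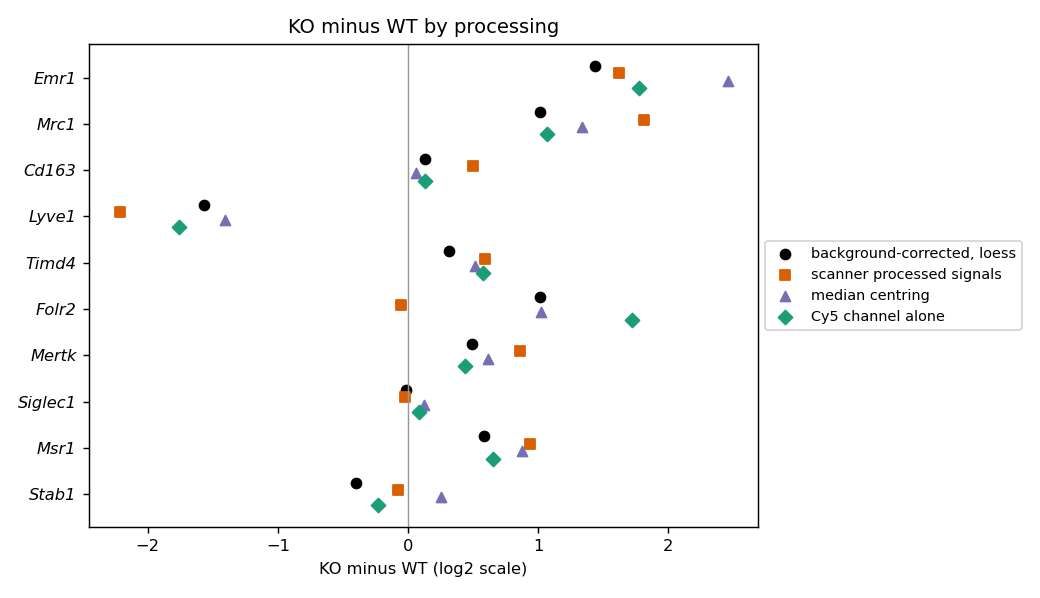
KO minus WT on the log2 scale is plotted for the 10 genes under background-corrected loess ratios (black circles), the scanner's processed signals (orange squares), median centring (violet triangles) and the Cy5 channel alone (green diamonds). Emr1 and Mrc1 lie above 0 under each, Lyve1, with its unreadable KO replicate 1 spot, below 0 under each, and Folr2 falls to -0.05 with the processed signals.

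Promoters are shown for 3 of the genes that held a match, since a pair of transcription factors, PU.1 (Spi1) and the MAF proteins, is known for macrophage gene control. RefSeq promoters (GRCm38.p6) were matched for 6 of the 10 genes, in 7 windows of 250 bases before the start. They were searched on both strands for GAGGAA, the core of PU.1 sites, and TGCTGA, the site bound by a single MAF protein. These motifs do not overlap in the sequences shown and were chosen after the expression values were known. Each match is in capitals, and the reverse complements read TTCCTC and TCAGCA.
Mrc1 promoter: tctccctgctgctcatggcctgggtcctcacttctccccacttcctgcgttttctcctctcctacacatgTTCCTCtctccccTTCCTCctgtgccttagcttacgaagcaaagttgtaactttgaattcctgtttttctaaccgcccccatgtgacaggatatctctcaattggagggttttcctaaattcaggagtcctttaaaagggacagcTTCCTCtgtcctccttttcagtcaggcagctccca
Timd4 promoter: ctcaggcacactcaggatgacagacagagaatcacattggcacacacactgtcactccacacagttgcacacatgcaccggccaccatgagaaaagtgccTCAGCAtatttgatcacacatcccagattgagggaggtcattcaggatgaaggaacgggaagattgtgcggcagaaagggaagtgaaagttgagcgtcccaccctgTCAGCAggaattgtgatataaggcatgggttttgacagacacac
Stab1 promoter: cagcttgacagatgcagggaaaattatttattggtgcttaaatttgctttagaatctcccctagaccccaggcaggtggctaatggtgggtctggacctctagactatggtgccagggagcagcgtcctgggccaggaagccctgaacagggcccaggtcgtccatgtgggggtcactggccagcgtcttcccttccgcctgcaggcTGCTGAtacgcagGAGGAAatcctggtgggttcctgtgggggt
The windows are chr2:14229164-14229413 (plus strand) for Mrc1, chr11:46810549-46810798 (plus strand) for Timd4 and chr14:31168642-31168891 (minus strand) for Stab1. Mrc1 held GAGGAA 3 times, with first bases 180, 167 and 35 bases before the start, all as TTCCTC. Timd4 held the MAF motif at 150 and 44 bases before it, and Stab1 held 1 of each, at 30 (GAGGAA) and 43 (TGCTGA). Of all 32851 promoters in the table, 23.3% held GAGGAA and 16.1% held TGCTGA in either direction. Of the 6 matched genes, 2 held GAGGAA (Mrc1 and Stab1) and 3 held TGCTGA (Folr2, Timd4 and Stab1), and Mertk and Cd163 held neither. A match is a description of the letters and not a binding site.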

How the data were processed

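Per the file headers, the scanner files hold unprocessed median intensity of each spot and its local background, processed intensity values from which the software had removed background and dye effects, and a log10 ratio of sample over reference. The values table the authors deposited is in log2 ratios, which followed the scanner ratio with a slope of 1.00 to 1.01 and medians of -0.117 to 0.139 per array, with no centring per gene. The submitters' processing notes name Agilent Feature Extraction 11.0, and the file headers give 11.0.1.1 (epithelial cells) and 12.0.2.2 (macrophages). The macrophage files carry no gene names, so names came from the epithelial files, whose probe names match row for row, updated through RefSeq names for 27509 of 55681 probes.

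Median signals were corrected with normexp (offset 50) and each array was then loess-normalized (limma 3.58.1, R 4.3.3, with version 1.17.8 of data.table). Of 62976 spots per array, 3671 controls and 170 to 500 spots marked as outliers were left out, and spots of a probe were averaged. The 34904 probes whose Cy5 the software called well above background on 2 or more of the 4 macrophage arrays were tested with lmFit and eBayes and a Benjamini-Hochberg adjusted p under 0.05, with no covariate. The fit was tested on simulated data. Dyes were never swapped, so a probe's dye bias cancels between arrays only where it is equal. For the bounds, the Cy5 channel was taken after loess and quantile normalization.

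The 10 genes and all lists were chosen with earlier results of these data known. All 10 were named, with the 3 genes nearest in profile for Emr1 and for Mrc1, Timd4, Folr2 and Msr1, which spread widest among genes with readable spots (1 neighbour is not reported here), and from other lists those of largest difference. Alternatives were processed signals, the authors' table, median centring, no background subtraction, Cy5 alone, other probe filters, the mean of a gene's probes, a replicate block, a trended robust fit, and each array left out. Leaving out Lyve1 was added after the data were seen. Sequence and figures used Python 3.11.15, pandas 2.3.3 and matplotlib 3.10.9.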

Additional observations from a re-analysis of the deposited data

How the results depend on the processing

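The count of probes past the limma threshold was 0 in each of the 16 settings run, and the smallest adjusted p was 0.223 without WT replicate 2 (where 6173 probes had an unadjusted p under 0.05) and 0.930 or more in the others. A fit without 1 array leaves 1 array in a genotype, which is assumed to vary like the rest. Leaving out 1 array moved the median KO minus WT over the 10 genes between -0.37 (without WT replicate 1) and 1.64 (without WT replicate 2). For single genes the range was 0.37 to 2.50 for Emr1, -0.36 to 2.39 for Mrc1, -0.036 to 0.30 for Cd163, -4.86 to 1.72 for Lyve1, -1.36 to 1.99 for Timd4, -0.38 to 2.40 for Folr2, -0.31 to 1.30 for Mertk, -0.28 to 0.25 for Siglec1, -1.15 to 2.32 for Msr1 and -1.23 to 0.43 for Stab1. Under the other settings the median was 0.40 to 0.56. The Dll1-high minus Dll1-low median moved from -0.19 to -0.44 with the processed signals and with the authors' table. With the replicate block, 0 probes passed and 207 had an unadjusted p under 0.05, against 50 without it. Emr1 was among the 207, with an unadjusted limma p of 0.0460 and an adjusted p of 0.971, and the median stayed at 0.40. The numbers share only a slide row, and KO and WT differences between replicates 1 and 2 correlated at 0.576 over 34573 probes, so the block is given as a setting and not as a pairing by design. Apart from arrays left out, the sign of KO minus WT turned for 3 genes. Folr2 was -0.0497 with the processed signals and with the authors' table. Siglec1 was 0.12 under median centring, 0.013 with no background subtraction, 0.088 in Cy5 alone and 0.0498 with the mean of its probes, and Stab1 was 0.25 under median centring. Dll1-high minus Dll1-low of Cd163 was -0.52 and of Emr1 0.013 with the processed signals and with the authors' table, against 0.065 and -0.10. That of Msr1 by its main probe was -3.20 in both of these settings, against -0.72. The cause was not tested.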
